A study of Homo sapiens with 6 samples.

Results

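The interferon response was read from 9 interferon-stimulated genes in a human neuroblastoma cell line: *IFIT1*, *IFIT2*, *IFIT3*, *IFI6*, *ISG15*, *MX1*, *OAS1*, *STAT2* and *IRF9*. The rule takes them by symbol and uses no measured value, although the members were chosen with earlier results of these data known. All 9 were found among the 60651 gene identifiers of the deposited tables. Total RNA was sequenced from 3 libraries labelled EtOH (ethanol, the vehicle) and 3 libraries labelled Tet (tetracycline, given for 5 days). The question put to these genes was whether tetracycline, or the hairpin RNA or transgene it switches on, raised an interferon response.

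The labels do not name 1 cell model. Titles give IMR575, that is IMR-5/75, a *MYCN*-amplified line, and a tag marks the EtOH libraries as knockdown Control and the Tet libraries as Induction. The protocol text instead describes SK-N-SH cells that carry the tetracycline repressor of pcDNA6TR and a tetracycline-inducible *MYCN* transgene, kept as single clones under G418 and blasticidin. In the study an inducible *MYCN* shRNA was used in IMR-5/75 cells. Groups follow the titles only, and what both groups share beyond the line (the repressor, the silent cassette and the selection drugs) would not appear as a difference between them. The study's methods describe its cell culture experiments in general as independent replicates, but the labels do not say whether the 3 libraries of a group came from separate cultures, so p-values measure the spread between these libraries, which may be technical.

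Type I and type III interferons are secreted when a cell senses foreign nucleic acid. They bind surface receptors whose kinases JAK1 and TYK2 phosphorylate STAT2. With IRF9 it is part of the complex ISGF3, which binds the interferon-stimulated response element (ISRE) in the promoters of many genes, most of them antiviral. A different element, GAS, serves mainly the response to interferon gamma. *STAT2* and *IRF9* thus stand for the signalling complex, and the other genes for its output. Double-stranded RNA, including hairpins, can start the same response, which is why such genes are used as a control in knockdown experiments.

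The elements through which this complex acts can be seen in the promoters. RefSeq promoter windows (250 bases before to 50 bases after a start, GRCh38.p14) were matched by symbol for 8 of the 9 genes, in 11 windows, and *IFIT2* was not matched. They were searched for GAAANNGAAA on either strand, as the ISRE, and for TTCNNNGAA, as GAS. ISRE letters lay in windows of 5 of the 8 genes (*IFIT1*, *IFIT3*, *ISG15*, *MX1* and *IFI6*) and in 3.57% of all 35116 windows of that length. GAS letters lay in windows of 3 of the 8 genes (*MX1*, *OAS1* and *IRF9*) and in 7.66% of all windows. The counts by gene and the shares by window are not like for like, since *MX1* has 3 windows and *IFIT3* has 2. In *MX1* the GAS match at base -189 overlaps the ISRE match at base -196. The stretches around the ISRE matches are shown for 3 genes that had counts in every library. They are also shown for *ISG15*, which was almost absent, since these promoters carry the same letters. They run 5′ to 3′ on the strand of the gene, hold no annotated exon base, and have the bases of each match in capitals.
IFIT1 promoter, chr10:89392492-89392544, plus strand, bases -131 to -79: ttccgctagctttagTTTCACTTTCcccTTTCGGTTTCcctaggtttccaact
IFIT3 promoter, chr10:89327826-89327899, plus strand, bases -171 to -98: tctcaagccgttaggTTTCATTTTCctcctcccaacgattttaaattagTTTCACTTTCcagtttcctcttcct
ISG15 promoter, chr1:1013369-1013414, plus strand, bases -128 to -83: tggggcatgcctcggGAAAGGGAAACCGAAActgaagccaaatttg
IFI6 promoter, chr1:27672261-27672363, minus strand, bases -171 to -69: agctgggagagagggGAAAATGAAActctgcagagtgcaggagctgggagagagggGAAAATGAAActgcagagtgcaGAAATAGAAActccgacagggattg

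*IFIT1* holds 2 matches at bases -116 and -103, and *ISG15* holds 2 overlapping matches at bases -113 and -107. *IFI6* holds 3, at bases -156, -115 and -93. The first window of *IFIT3* holds 2 matches at bases -156 and -122, and its second window 2 more at bases -94 and -51. A match is a description of the letters, and binding of a factor was not measured here.

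**Figure D1:**
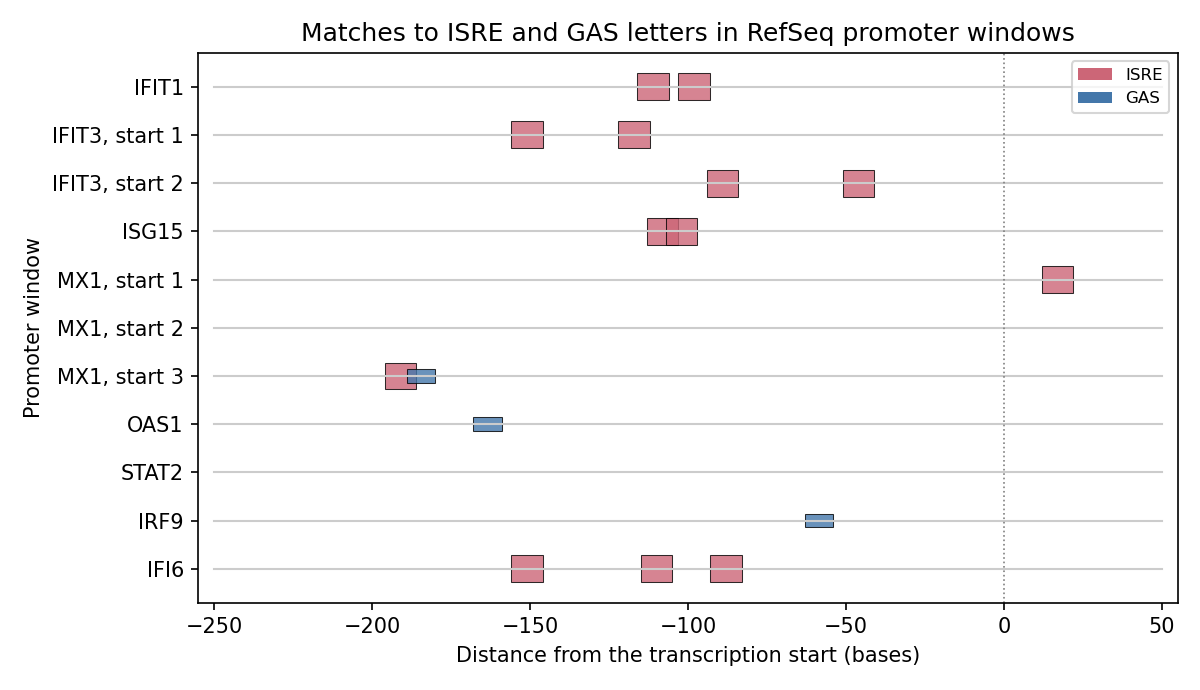
Positions of ISRE letters (red, tall boxes) and GAS letters (blue, short boxes) in 11 RefSeq promoter windows of 8 genes. The x axis is the distance in bases from the transcription start (dotted line), each grey line is 1 window, and *IFIT2* has no window.

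The depth of the libraries sets what could be seen. They held 27933378 to 40498065 estimated counts, and totals did not differ beyond their spread between the labels (exact two-sided permutation test, p = 0.4, where 0.1 is the smallest p that 3 libraries against 3 allow). A floor of 3 counts, the limit that a count of 0 allows, corresponds to 0.0754 to 0.108 CPM, the unit in which libraries are brought to 1 size. It covers counting error only. The library EtOH 2 stood apart, with 4.12% mitochondrial counts against 5.86% to 10.01% in the other libraries and at the far end of the first principal component, which held 44.7% of the variance. Tet 2 had the 5.86% and lay on the same side of that component, at 47.4 against 84 for EtOH 2. The remaining libraries lay from -55 to -1.8. The second component, which held 25.7% of the variance, separated the labels, at -39.1 to -34.6 in EtOH and 26.4 to 48.2 in Tet. *MYCN*, the gene targeted in the study, was at 158, 256 and 156 CPM in the libraries labelled EtOH and at 197, 200 and 145 CPM in the libraries labelled Tet. Its level did not separate the labels (edgeR log2 fold change -0.07 with an SE of 0.23, adjusted p = 0.956), so directions below are those of the labels only. Of 12 noradrenergic neuroblastoma markers 10 were abundant enough to test, while tyrosine hydroxylase (*TH*) had 1 count in all 6 libraries. Of 8 immune cell markers 4 had no more than 3 counts in any library, and their summed level was 0.799 to 1.27 CPM in EtOH and 0.873 to 1.79 CPM in Tet.

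The 9 interferon-stimulated genes fell into a group of 5 with a low level and a group of 4 that were at or near zero in every library. For the *IFIT* genes and *IFI6* this level may include reads of overlapping genes, as given below. Levels are compared between genes in TPM, a unit that also divides by exon length. *STAT2* had the highest level at 4.92 ± 1.91 TPM (SD, n = 6 libraries), followed by *IFI6* at 2.93 ± 2.02, *IFIT1* at 2.93 ± 0.763, *IFIT3* at 2.74 ± 0.468 and *IFIT2* at 1.67 ± 0.282 TPM. *STAT2* lay above *IFI6* in 6 of 6 libraries and *IFIT3* above *IFIT2* in 6 of 6. *IFI6*, *IFIT1* and *IFIT3* were not separated, each exceeding the next in 3 of 6 libraries. *IRF9* followed at 0.0407 ± 0.0319 TPM, *ISG15* at 0.0145 TPM, *OAS1* at 0.00503 TPM and *MX1* at 8.33e-04 TPM. The order of these last 4 rests on 16.0 counts over all libraries and genes.

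**Figure D2:**
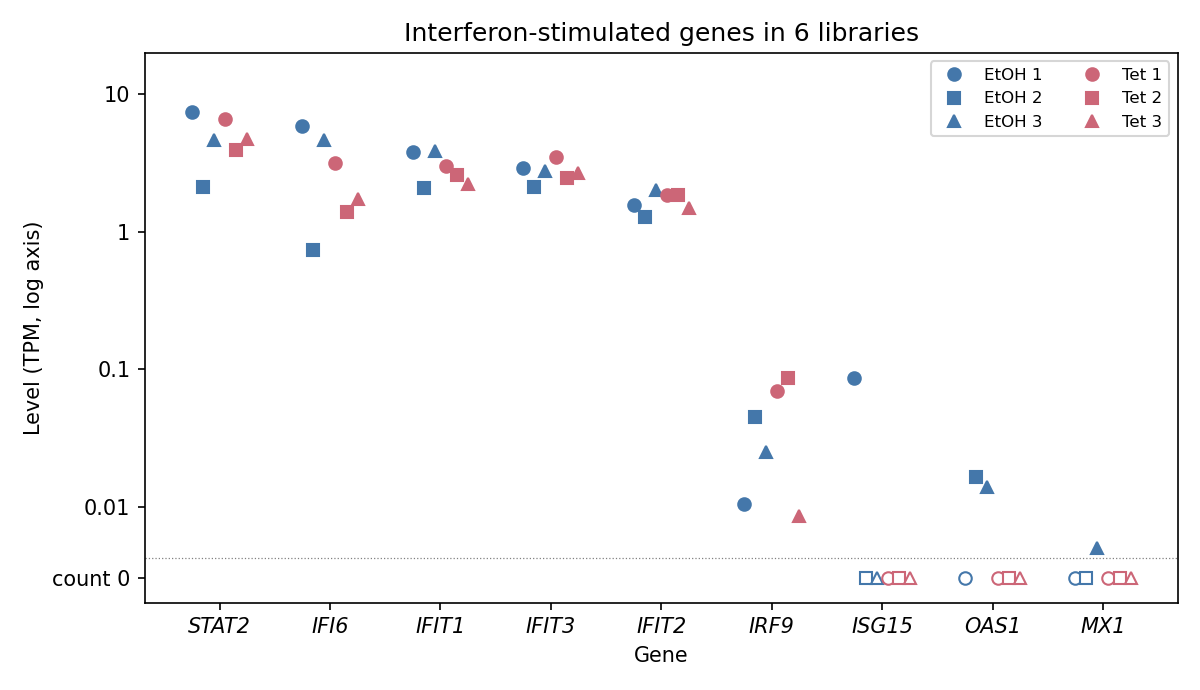
Level of each gene in each library in TPM on a log axis, with EtOH in blue, Tet in red and the replicate number as the marker shape. Open markers below the dotted line are libraries with a count of 0, and *ISG15*, *OAS1* and *MX1* have such a marker in all 3 Tet libraries.

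*ISG15* (chr1:1001138-1014540), a ubiquitin-like protein that is attached to other proteins after interferon, had 1 count in EtOH 1 and 0 counts in the other 5 libraries. A count of 0 allows up to 0.212 to 0.369 TPM for this gene, depending on the library. *MX1* (chr21:41420020-41470071), a dynamin-like GTPase that traps viral particles, had 1 count in EtOH 3 and 0 counts elsewhere, which allows 0.0102 to 0.0178 TPM. *OAS1* (chr12:112905856-112933219), which makes the oligoadenylates that activate RNase L, had 0, 2 and 2 counts in EtOH. It had 0 counts in each Tet library, which allows 0.0141 to 0.0230 TPM. No Tet library held a single read of these 3 genes, so no rise above these limits was seen. They failed the filter on low counts of the main test. With no filter edgeR gave *ISG15* and *MX1* an adjusted p of 0.784 and *OAS1* one of 0.701, and DESeq2 gave them no adjusted p.

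*IRF9* (chr14:24161265-24166565), the DNA-binding partner in ISGF3, had 0.5, 1.5 and 1 counts in EtOH and 2.5, 4 and 0.5 counts in Tet. The groups overlapped, 1 library passed the floor of 3 counts, and the gene failed the filter on low counts (edgeR adjusted p = 0.908 with no filter). *IRF9* shares 42.2% of its exon bases with a longer gene on the same strand, ENSG00000259529, and reads in the shared stretch were divided between both. That gene itself had 4 to 22.5 counts in a library.

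*STAT2* (chr12:56341597-56360167, minus strand), the other partner specific to ISGF3, was the most abundant of the 9 genes and shares no exon base with another gene. Its level was 17.1, 4.44 and 10.7 CPM in EtOH and 14.6, 8.98 and 12 CPM in Tet. The groups overlapped, with EtOH holding both the highest and the lowest library, a 3.86-fold range. With 3 libraries a group the means ± SD were 10.7 ± 6.35 CPM in EtOH and 11.8 ± 2.80 CPM in Tet. On the log2 scale Tet exceeded EtOH by 0.14 (SE 0.43, 95% interval -0.84 to 1.12), with an adjusted p of 0.954 in edgeR.

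The *IFIT* genes encode proteins with tetratricopeptide repeats that bind foreign RNA and block its translation, and they lie side by side on chromosome 10. *IFIT1* (chr10:89392546-89406487), which recognises RNA by its cap, was at 6.47, 3.25 and 6.55 CPM in EtOH and at 4.94, 4.43 and 4.23 CPM in Tet. The Tet libraries lay close together between the low and the high EtOH libraries. The mean was 5.42 ± 1.88 CPM in EtOH and 4.53 ± 0.367 CPM in Tet. The log2 fold change was -0.26 (SE 0.31, 95% interval -0.96 to 0.44, adjusted p = 0.839).

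*IFIT2* (chr10:89283694-89309271) was at 2.5, 1.86 and 3.21 CPM in EtOH and at 2.85, 2.92 and 2.63 CPM in Tet, so that every Tet library lay inside the EtOH range. Its log2 fold change was 0.14 (SE 0.29, 95% interval -0.53 to 0.81, adjusted p = 0.925). *IFIT3* (chr10:89327307-89377473), which joins IFIT1 and strengthens its hold on RNA, was at 5.43, 3.64 and 5.17 CPM in EtOH and at 6.33, 4.57 and 5.60 CPM in Tet. The groups overlapped, although the highest library was Tet 1. Its log2 fold change was 0.21 (SE 0.26, 95% interval -0.38 to 0.80, adjusted p = 0.85).

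The counting limits what the *IFIT* values mean. All exon bases of *IFIT1*, *IFIT2* and *IFIT3* lie inside the annotated span of *LIPA*, a lysosomal lipase gene on the opposite strand, and the counting did not use strand. *LIPA* was at 39.7 to 68.4 CPM, above each *IFIT* gene in every library, with a log2 fold change of -0.45 (adjusted p = 0.428). In total RNA, reads from its introns would be added to the *IFIT* counts, and their part in these values was not tested. *IFIT2* further shares 12.1% of its exon bases with ENSG00000232110 on its own strand.

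*IFI6* (chr1:27666064-27672212, minus strand), a small membrane protein with antiviral activity, varied most. It was at 2.05, 0.234 and 1.6 CPM in EtOH and at 1.05, 0.479 and 0.667 CPM in Tet. EtOH held both extremes, an 8.75-fold range, and all Tet libraries lay inside it. The log2 fold change was -0.83 (SE 0.70, 95% interval -2.43 to 0.76, adjusted p = 0.753). Its counts of 73.5, 6.5 and 48.5 in EtOH and 29.5, 17 and 26.5 in Tet were nearly those of *LINC02574*, a gene on the same strand that shares 216 of the 936 exon bases of *IFI6*. *LINC02574* had 72.5, 7.5 and 43.5 counts in EtOH and 29.5, 17 and 21.5 in Tet. The counts of both genes differed by at most 5.00 in any library, and reads in the shared stretch were divided evenly, so most reads given to *IFI6* could lie in those 216 bases.

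Across the genes, 0 of 5 tested passed an adjusted p of 0.05, where 0.236% of all 22443 genes tested did (33 higher and 20 lower in Tet). None of the 5 had an unadjusted p under 0.05, which 10.8% of all genes had, and none had groups that did not overlap, which 17.5% of all genes had. DESeq2 and limma-voom also called 0 members. The log2 fold change was above 0 for 3 genes and below 0 for 2, with a median of 0.14 beside -0.01 over all genes tested. The upper ends of the 95% intervals, read as folds, were 1.35 for *IFIT1*, 1.69 for *IFI6*, 1.74 for *IFIT3*, 1.75 for *IFIT2* and 2.17 for *STAT2*. Larger rises in the counts lay outside the intervals. For the *IFIT* genes and *IFI6*, whose counts may hold reads of *LIPA* or *LINC02574*, the intervals do not bound the transcripts alone.

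**Figure D3:**
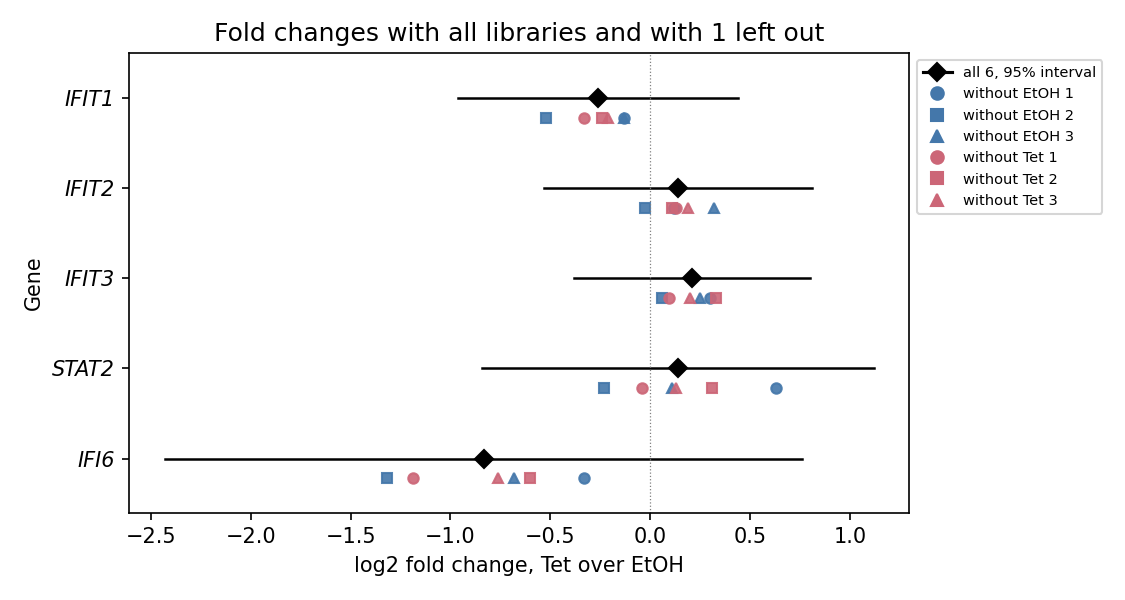
The log2 fold change of Tet over EtOH for the 5 tested genes with all 6 libraries (black diamonds, lines are 95% intervals) and with 1 library left out (coloured markers). Every interval includes 0, and leaving out EtOH 2 gives the lowest value for each gene.

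Libraries with the same label spread widely. EtOH 2 was the lowest library for 5 of 5 tested genes, against 28.3% of all genes tested. As a mean over the 5 genes, log2 CPM deviated from the gene's own mean by 0.49, -0.86 and 0.34 in EtOH and by 0.26, -0.20 and -0.02 in Tet. Summed over all 9 genes the level was 21.7, 8.39 and 18.0 TPM in EtOH and 18.2, 12.3 and 12.9 TPM in Tet, so the groups overlapped. The SD of log2 CPM within EtOH was 0.98 for *STAT2* and 1.55 for *IFI6*, against a median of 0.37 over all genes, while *IFIT3* at 0.31 was below that median. Within Tet it was 0.08 to 0.52 for the 5 genes, against a median of 0.31.

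**Figure D4:**
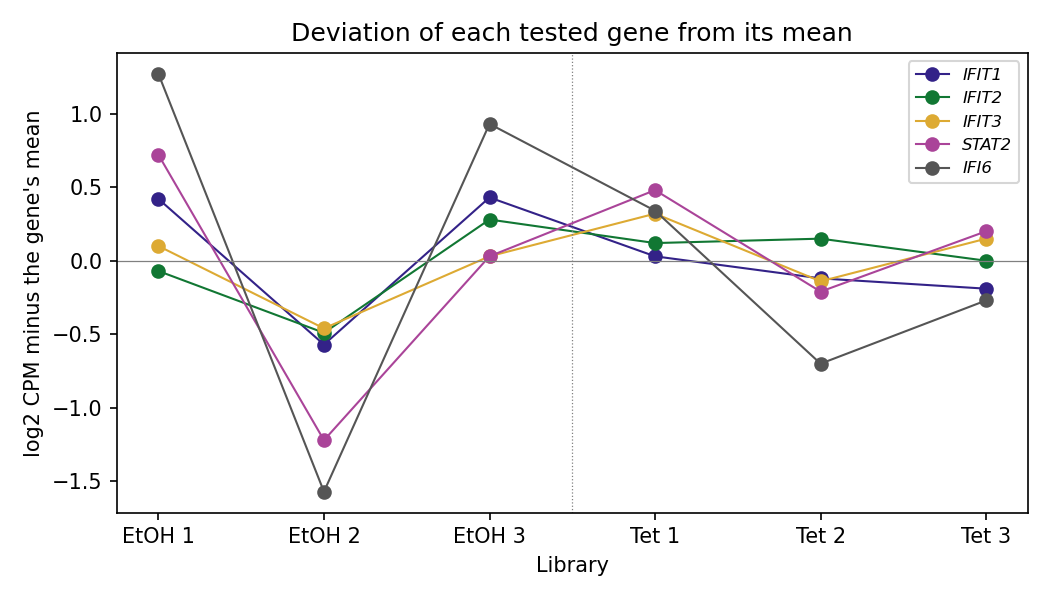
Log2 CPM of the 5 tested genes in each library, minus the gene's mean over the 6 libraries (a difference, not a level), with lines that only join the points of 1 gene. All 5 genes are lowest in EtOH 2.

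Without EtOH 2 no member passed the threshold, where 2.89% of all genes did, but 2 of 5 had an unadjusted p under 0.05, where 20.5% of all genes did. Both were lower in Tet. The log2 fold change of *IFI6* was then -1.32 (edgeR adjusted p = 0.125) and that of *IFIT1* was -0.52 (adjusted p = 0.221). *IFIT2* went to -0.025 and *STAT2* to -0.23, turning sign, and *STAT2* also turned sign without Tet 1, at -0.040. The genes most like the mean profile of the 5 members over the 6 libraries were *RPL35AP31* (Pearson r = 0.998), ENSG00000237283 (0.998), *PHKA2-AS1* (0.997), *HNRNPA1P15* (0.997) and ENSG00000259017 (0.997). They share the libraries and their depth with the members, and 426 genes, or 1.90% of those tested, had an r above 0.95.

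The pathway upstream and around these genes was read from 11 lists with 137 genes. Of these, 54 had no more than 3 counts in any library and 66 were tested. None of the 66 passed the threshold in edgeR, DESeq2 or limma-voom, and the lowest adjusted p in edgeR was 0.224. An unadjusted p under 0.05 was found for 6 of them (9.09%, against 10.8% of all genes), and 10 had groups that did not overlap (15.2%, against 17.5%). The median log2 fold change of the 66 genes was 0.06.

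**Figure D5:**
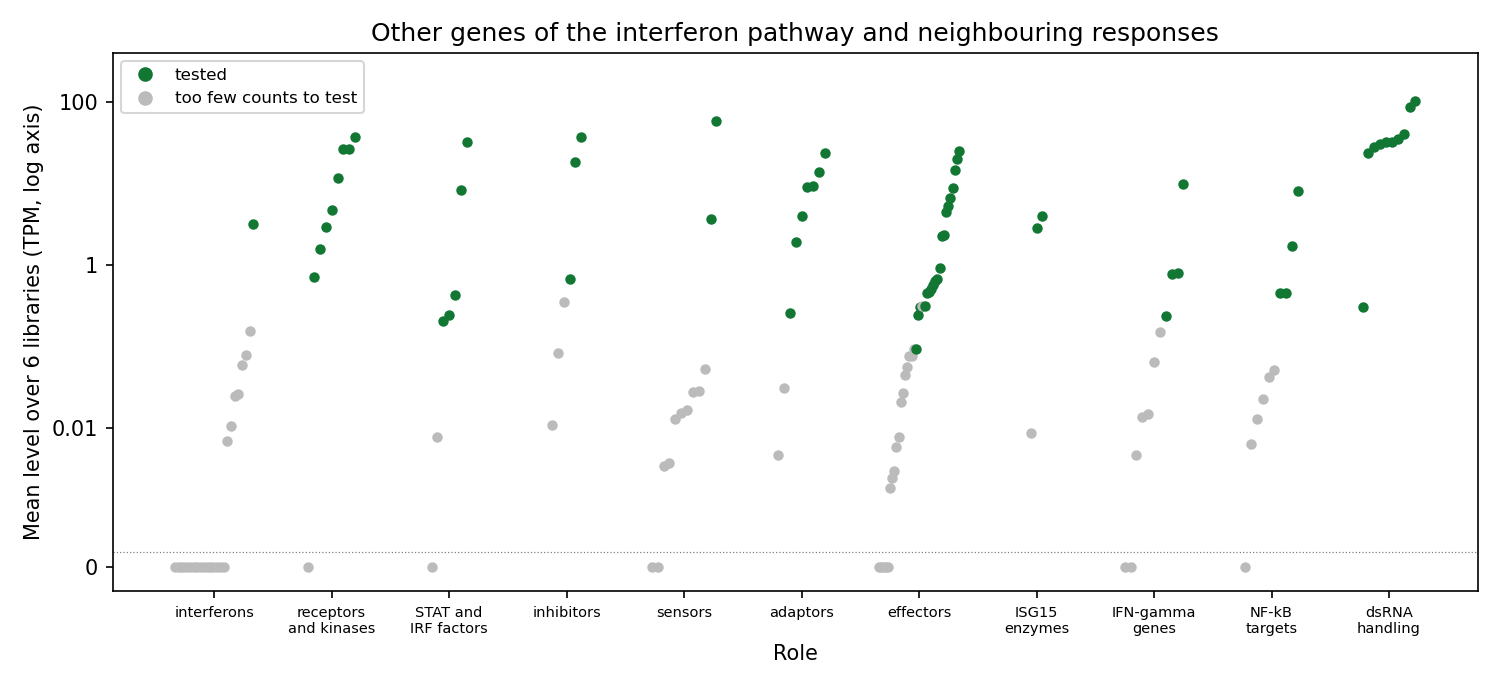
Mean level over 6 libraries in TPM (log axis) of each of 137 further genes by role, with tested genes in green and genes with too few counts in grey. Points under the dotted line are genes with a count of 0 in every library, 14 of them interferons.

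The interferon genes themselves were almost silent. Of 22 genes for type I, II and III interferons 21 had no more than 3 counts in any library, and 14 of these had none at all. The exception was *IFNK*, an interferon best known from keratinocytes, at 1.42, 1.33 and 2.21 CPM in EtOH and 1.21, 0.621 and 1.28 CPM in Tet. The groups did not overlap and the log2 fold change was -0.68 (SE 0.41, adjusted p = 0.620). All of its exon bases lie within the span of *MOB3B* on the opposite strand, which was at 4.23 to 11.3 CPM, and the part of *MOB3B* reads in it was not tested.

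Genes of the receiving side differed widely in level. Of 9 receptor and kinase genes 8 were tested, 5 of them with a log2 fold change above 0. *IFNAR1*, a chain of the type I receptor, was the most abundant by TPM, at 37.7 TPM, and lay at 87.3 ± 23.5 CPM in EtOH and 102 ± 10.5 CPM in Tet (log2 fold change 0.23, adjusted p = 0.774). *JAK2*, a kinase of the interferon gamma receptor, was at 38.2 ± 3.20 CPM in EtOH and 29.1 ± 2.89 CPM in Tet, with groups that did not overlap (log2 fold change -0.39, SE 0.16, adjusted p = 0.426). *IFNGR2* had a value of -0.73 (adjusted p = 0.692). *TYK2* was at a low level of 0.713 TPM, with a value of 0.56 (adjusted p = 0.724). *IFNLR1*, the specific chain of the type III receptor, had no count in any library.

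Of 7 further transcription factors of the response 5 were tested. *IRF7* and *IRF8*, which amplify interferon production in other cells, had no more than 3 counts in any library. *IRF1*, *IRF3* and *IRF5* were tested at low levels of 0.208, 0.428 and 0.244 TPM, with log2 fold changes of 0.39, 0.31 and -0.59 (lowest adjusted p of the 3 = 0.821). All exon bases of *IRF1* lie within the span of ENSG00000283782 on the opposite strand, which was at 182 to 224 CPM, and the part of its reads in *IRF1* was not tested. Of 6 inhibitors of the pathway 3 were tested, namely *SOCS3* (log2 fold change 0.70, adjusted p = 0.640), *PTPN2* (-0.15, adjusted p = 0.790) and *PIAS1* (0.02, adjusted p = 0.981).

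The listed sensors, not all of which respond to RNA, differed widely in level. Only 2 of 12 nucleic acid sensors were tested. *EIF2AK2*, which encodes the kinase PKR that is activated by double-stranded RNA, was at 224 ± 35.5 CPM in EtOH and 253 ± 3.93 CPM in Tet (log2 fold change 0.17, SE 0.16, adjusted p = 0.778). *RIGI*, a sensor of RNA with a triphosphate end, was at 13.9 ± 3.05 and 14.3 ± 1.78 CPM (log2 fold change 0.04, adjusted p = 0.975), and shares 43.22% of its exon bases with another gene. *TLR3*, *TLR8*, *TLR9*, *AIM2* and *STING1* had no more than 3 counts in any library. Of 9 adaptors 7 were tested, and *TBK1*, the kinase that phosphorylates IRF3, was the most abundant at 128 ± 44.3 CPM in EtOH and 124 ± 19.1 CPM in Tet (log2 fold change -0.05, adjusted p = 0.977). The lowest unadjusted p among them belonged to *TRAF6* (log2 fold change -0.25, adjusted p = 0.595), *IRAK4* (0.24, adjusted p = 0.704) and *TICAM1* (0.84, adjusted p = 0.816). All 10 genes for handling of double-stranded RNA were tested, with log2 fold changes from -0.23 for *PNPT1*, the most abundant by TPM, to 0.16. *PNPT1* (adjusted p = 0.751), *DROSHA* (-0.20, adjusted p = 0.733) and *SUPV3L1* (-0.18, adjusted p = 0.783) had the lowest unadjusted p.

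Of 38 further effector genes 20 were tested, 14 of them with a log2 fold change above 0 and a median of 0.14, against -0.01 over all genes. The 12 genes with no more than 3 counts in any library included *MX2*, *OAS2*, *OAS3*, *OASL*, *IFI27*, *IFITM3*, *BST2* and *XAF1*. *IFI44* was at 3.46, 4.87 and 2.78 CPM in EtOH and at 6.63, 5.99 and 6.24 CPM in Tet, with every Tet library above every EtOH library. Its log2 fold change was 0.76 (SE 0.27, adjusted p = 0.348). Its neighbour *IFI44L* was at 38.7, 70.3 and 39.8 CPM in EtOH and at 69.1, 88.3 and 65.9 CPM in Tet, and the groups overlapped through EtOH 2 (log2 fold change 0.59, SE 0.25, adjusted p = 0.459). Without EtOH 2 *IFI44L* passed the threshold (log2 fold change 0.93, edgeR adjusted p = 0.0229). It was the 1 gene called there among 70 pathway genes tested (1.43%, below the 2.89% of all genes). *SAMD9L*, an antiviral and growth-restricting protein, had a log2 fold change of 0.89 (SE 0.37, adjusted p = 0.439), and its groups did not overlap. *IFIT5*, a relative of the members, was the most abundant effector by TPM, at 25.1 TPM, and lay at 43.0 ± 7.48 CPM in EtOH and 37.3 ± 4.70 CPM in Tet (log2 fold change -0.21, adjusted p = 0.774).

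Among the enzymes that attach ISG15 to proteins, *HERC5*, the ligase, was at 8.62, 9.45 and 7.90 CPM in EtOH and at 5.92, 4.71 and 5.03 CPM in Tet. Every Tet library lay below every EtOH library, and the log2 fold change was -0.73 (SE 0.21, adjusted p = 0.250). *UBE2L6*, the conjugating enzyme, was at 1.98, 1.37 and 1.92 CPM in EtOH and at 2.38, 2.20 and 3.47 CPM in Tet. Here every Tet library lay above every EtOH library, and the log2 fold change was 0.61 (SE 0.32, adjusted p = 0.558). *UBA7*, the activating enzyme, had no more than 3 counts in any library.

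Of 11 genes led by interferon gamma 4 were tested. *WARS1*, a tryptophan tRNA synthetase that is also under control of other stress pathways, was at 17.3, 16.8 and 17.4 CPM in EtOH and at 32.9, 20.8 and 36.8 CPM in Tet. The groups did not overlap, and its log2 fold change of 0.81 (SE 0.23) had the lowest adjusted p of the 66 genes, 0.224. *GBP2* had a value of 0.76 (adjusted p = 0.579) and *CIITA* one of -0.07 (adjusted p = 0.972), while *CXCL9*, *CXCL10*, *GBP4*, *GBP5* and *IDO1* had no more than 3 counts in any library. Of 10 NF-kB targets 4 were tested, among them *NFKBIA* (log2 fold change 0.19, adjusted p = 0.85), *BIRC3* (0.24, adjusted p = 0.893) and *CXCL8* (-0.13, adjusted p = 0.941). Among the markers of cell state, the noradrenergic enzyme gene *DDC* was called, at 0.242 ± 0.104 CPM in EtOH and 2.84 ± 0.437 CPM in Tet (log2 fold change 3.55, SE 0.41, adjusted p = 0.028). The call was lost without EtOH 1, EtOH 3 or any 1 of the Tet libraries (adjusted p from 0.106 to 0.208). Its list had groups that did not overlap for 7 of 10 tested genes (against 17.5% of all genes), *GATA3*, the most abundant, at 247 ± 17.2 and 316 ± 17.4 CPM among them (adjusted p = 0.401). None of 8 tested mesenchymal markers was called by edgeR (3 at an unadjusted p under 0.05, against 10.8% of all genes, and 4 with groups that did not overlap, against 17.5%), with the lowest unadjusted p for *PRRX1* (log2 fold change -1.02, adjusted p = 0.317), *SNAI2* (1.84, adjusted p = 0.389) and *NOTCH2* (-1.38, adjusted p = 0.409), and with *VIM* the most abundant (-0.20, adjusted p = 0.829). Of the immune markers only *PTPRC* was tested (log2 fold change -0.52, adjusted p = 0.809), and *LYZ* had the highest level of that list at 0.604 TPM. *LYZ* had 3, 6.5 and 3.5 counts in EtOH and 15.5, 35.5 and 12 in Tet, with groups that did not overlap, and failed the filter on low counts. The part of such cells in other values was not tested. In bulk RNA, fewer cells with a transcript and less of it in each cell cannot be told apart.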

How the data were processed

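Total RNA was measured in 6 libraries, 3 labelled EtOH and 3 labelled Tet. The authors deposited estimated counts per gene, 1 table per library, not scaled for depth or length. Per the file headers they come from unique STAR alignments counted over exons with featureCounts 1.6.4, read pairs divided evenly among overlapping genes and strand not used. The labels name featureCounts 1.5.1, STAR 2.7.1a and GRCh38, and the study's methods give a stranded setting. Between 12.3% and 14.73% of values in a library were not whole. The 92 spike-in sequences had no counts and were left out.

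Counts were rounded and tested in R 4.3.3 with edgeR 4.0.16 (filterByExpr, TMM, glmQLFTest), with Benjamini-Hochberg adjustment over all genes tested and a threshold of 0.05. The design had assumed whole counts. SE is the size of the log2 fold change divided by the square root of F, and CPM are TMM-normalised. log2 CPM used a prior count of 2. Alternatives were other scalings and filters, DESeq2 1.42.0, voom of limma 3.58.1, unrounded counts, a replicate block, leaving out each library and, added after seeing the data, leaving out both libraries numbered 2.

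The members, the gene lists and the tests were chosen with earlier results of these data known. Named were all members, *MYCN*, of each list the genes past the threshold or else up to 3 genes with the lowest unadjusted p, its most abundant gene, and the 5 genes most like the members in profile. Some genes that this rule names are not reported here. Genes listed as near zero, further near-zero or marker genes and overlapping genes were named after their values were seen. Symbols were found for 60481 identifiers. Promoters are RefSeq's, on GRCh38.p14.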

Additional observations from a re-analysis of the deposited data

How the results depend on the processing

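No member was called in any of the 15 alternatives, of which 13 tested 5 members, and edgeR with no filter and DESeq2 also took in the other 4, and in 70 of the 75 refits of a single tested member the fold change kept its sign and stayed short of the threshold. With both libraries numbered 2 left out, *IFIT2* turned to -0.063 and *STAT2* to -0.064. With 1 library left out, log2 fold changes ran from -0.52 to -0.13 for *IFIT1*, -0.025 to 0.32 for *IFIT2*, 0.058 to 0.33 for *IFIT3*, -0.23 to 0.63 for *STAT2* (-0.040 without Tet 1) and -1.32 to -0.33 for *IFI6*, with the sign of *IFIT2* turned without EtOH 2. The 53 genes called over the whole table became 302 without a filter, 499 in DESeq2 and 874 without both libraries numbered 2, and 0 to 692 with 1 library left out (692 without EtOH 2, 0 without Tet 1 or Tet 3). The cause was not tested.

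With a replicate block 675 genes (3.01%) were called, 0 of them members and 1 of the pathway, *IFI44L* (1.52% of 66 tested, edgeR adjusted p = 0.0425). Same-numbered libraries deviated together with correlations of 0.06, 0.511 and 0.219. The labels give these libraries only a shared number, so the main fit used no block. Whether they share a culture or batch was not tested. The pathway count of 0 became 1 without EtOH 2 (*IFI44L*), a range of 0 to 1 with 1 library left out, and 2 of 68 tested (2.94%, against 3.77% of all genes) without both libraries numbered 2 (*IFI44L* and *WARS1*). Over all alternatives the adjusted p ran from 0.125 to 0.974 for *IFI6*, from 0.221 to 0.996 for *IFIT1* and from 0.0131 to 0.915 for *IFI44L*. Ratios of mean levels in TPM in place of CPM moved by less than the spread between libraries. Depth limits *ISG15*, *MX1*, *OAS1* and *IRF9*, which failed the main filter and have adjusted p-values of 0.701 to 0.908 with no filter and none in DESeq2.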
